A study of Mus musculus with 6 samples.

Results

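Globins and a set of red cell genes were followed array by array in back skin of mice lacking Get1, a grainyhead-like transcription factor of the epidermis now named Grhl3. The 9 genes were Hba-a1, Hba-x, Hbb-b1, Hbb-bh1, Hbb-y, Alas2, Slc4a1, Ahsp and Epb42, and a probe set was included where its annotated symbols held one of them. This gave 18 of the 45037 probe sets that are not controls, and they covered 8 of the 9 genes. Ahsp was not analysed here. Skin from one and the same part of the back was taken at e18.5, which the sample labels write as e18, from 3 Get1 -/- and 3 Get1 +/+ mice, and there is 1 oligonucleotide array per numbered sample. The knockout is given only as a genotype, and the mouse strain, the deleted part of the gene and any pooling of RNA are not given in the sources used here. Values are MAS5 signals, a linear brightness in arbitrary units that had been scaled to the same trimmed mean on every array. Group values are means ± SD of 3 arrays per genotype, and the small number of arrays limits their precision.

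Maturing red cells make hemoglobin, a tetramer of alpha-like and beta-like globin chains that carries oxygen on heme. In the mouse the first red cells, born in the yolk sac, use the embryonic chains zeta (Hba-x), epsilon-y (Hbb-y) and beta-h1 (Hbb-bh1), and red cells from the fetal liver and later the bone marrow use the adult alpha (Hba-a1, Hba-a2) and adult beta chains. Skin holds red cells as blood in its vessels. In whole skin these transcripts are read here as blood carried with the tissue, which was not tested. In such bulk samples, fewer red cells and less globin RNA per red cell cannot be told apart.

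The start regions of some of these genes were searched for short motifs. The 150 bases before the annotated start of 5 genes are printed 5′ to 3′ on the gene's own strand, from the RefSeq promoter table of build GRCm38.p6. They were chosen as the brightest alpha-like and beta-like genes, a counterpart of each from the embryo, and the erythroid enzyme of heme synthesis. Hbb-bs stands for adult beta because it shares the Hbb-b1 probe set and the table holds it. Capitals mark exact matches, on either strand, to 4 short motifs described after the sequences.
Hba-a1: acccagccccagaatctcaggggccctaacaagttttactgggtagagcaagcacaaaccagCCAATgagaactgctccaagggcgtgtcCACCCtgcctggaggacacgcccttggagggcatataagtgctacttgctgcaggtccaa
Hba-x: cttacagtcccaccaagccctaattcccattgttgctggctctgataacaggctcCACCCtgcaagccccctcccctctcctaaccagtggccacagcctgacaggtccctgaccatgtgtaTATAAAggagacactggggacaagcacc
Hbb-bs: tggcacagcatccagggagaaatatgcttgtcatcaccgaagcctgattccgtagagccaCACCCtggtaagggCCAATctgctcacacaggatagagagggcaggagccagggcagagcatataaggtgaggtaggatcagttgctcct
Hbb-y: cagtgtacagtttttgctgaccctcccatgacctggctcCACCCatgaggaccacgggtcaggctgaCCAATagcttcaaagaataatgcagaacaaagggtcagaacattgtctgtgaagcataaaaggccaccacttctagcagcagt
Alas2: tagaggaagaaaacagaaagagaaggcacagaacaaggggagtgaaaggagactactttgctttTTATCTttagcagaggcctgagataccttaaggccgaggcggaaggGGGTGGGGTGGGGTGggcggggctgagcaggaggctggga
These windows lie at chr11:32283522-32283671 (plus strand) for Hba-a1, chr11:32276450-32276599 (plus) for Hba-x, chr7:103827929-103828078 (minus) for Hbb-bs, chr7:103853208-103853357 (minus) for Hbb-y and chrX:150547267-150547416 (plus) for Alas2. The letters CACCC, the core of the sites bound by the erythroid factor Klf1, occurred in all 5 windows printed, and not in that of Epb42, which was looked up too and held only TATAAA. Of 32851 promoter windows of the same length in the table, 37.4% held CACCC on either strand, 24.5% held CCAAT, 7.6% held TATAAA and 5.6% held AGATAA, the core of a GATA factor site. CCAAT occurred in Hba-a1, Hbb-bs and Hbb-y, TATAAA in Hba-x, and AGATAA, read on the opposite strand, in Alas2. A match is a description of the letters and not evidence of binding.

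Adult globin signal was among the brightest on every array, and it overlapped between the genotypes. The 4 bright alpha and beta probe sets had log2 changes, Get1 -/- minus Get1 +/+ skin, from -0.15 to -0.09. No globin or red cell probe set passed the test. Embryonic globins read in the dim range, and on 2 arrays, Get1 -/- replicate 3 and Get1 +/+ replicate 1, Hbb-y read far above the other 4.

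Of the 4 Hba-a1 probe sets, 3 are shared between near-identical genes, as is the single Hbb-b1 probe set, so their signal cannot be split by gene. The alpha probe sets are annotated to Hba-a1 and Hba-a2 together, and the beta probe set to Hbb-b1, Hbb-b2, Hbb-bs and Hbb-bt, which are the adult beta genes of different mouse haplotypes. The brightest alpha probe set read 28752, 24623 and 32006 in Get1 -/- skin, against 32632, 29822 and 28121 in Get1 +/+ skin. The genotypes overlapped, with Get1 -/- replicate 2 the lowest array and Get1 +/+ replicate 1 the highest. The means were 28460 ± 3700 in Get1 -/- and 30192 ± 2278 in Get1 +/+ skin, a log2 change of -0.09 ± 0.12 (SE, limma, adjusted p = 0.902). The 95% interval of this difference ran from -0.36 to 0.17, that is from 0.781 to 1.13 as a ratio of Get1 -/- over Get1 +/+ skin.

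The adult beta probe set had the same lowest and highest arrays. It read 28230, 22476 and 29765 in Get1 -/- skin, against 31480, 27300 and 26435 in Get1 +/+ skin. Its means were 26824 ± 3842 in Get1 -/- and 28405 ± 2698 in Get1 +/+ skin, a log2 change of -0.09 ± 0.13 (SE, limma, adjusted p = 0.913), with an interval from -0.38 to 0.20. The other shared alpha probe sets, which averaged 26821 ± 3718 and 12902 ± 2020 in Get1 -/- and 28594 ± 2049 and 14238 ± 1383 in Get1 +/+ skin, had log2 changes of -0.10 and -0.15. Their lowest array was also Get1 -/- replicate 2 and their highest Get1 +/+ replicate 1. Without Get1 -/- replicate 2, the brightest alpha and the beta probe set had log2 changes of 0.0096 and 0.034, so that array alone set the sign of both.

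The brightness of these probe sets bears on how far a difference could show. Of the 4 bright globin probe sets, 3 ranked between 19 and 97 of 45037 on every array, where the brightest probe set of each array read between 33292 and 40957. Whether the scanner's range compressed their differences was not tested. The median of the other 178 probe sets with a mean signal of at least 20000 also moved between arrays, by -0.18 on the log2 scale in Get1 -/- replicate 2. The 4 bright globin probe sets averaged -0.28 there. In Get1 +/+ replicate 1 the bright probe sets stood at 0.01 and the globins at 0.17, and in Get1 -/- replicate 3 they stood at 0.07 and 0.13. Set against the 100 probe sets nearest in signal, an alternative added after the data were seen, the 4 globin probe sets differed between genotypes by -0.08 to -0.04.

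**Figure D1:**
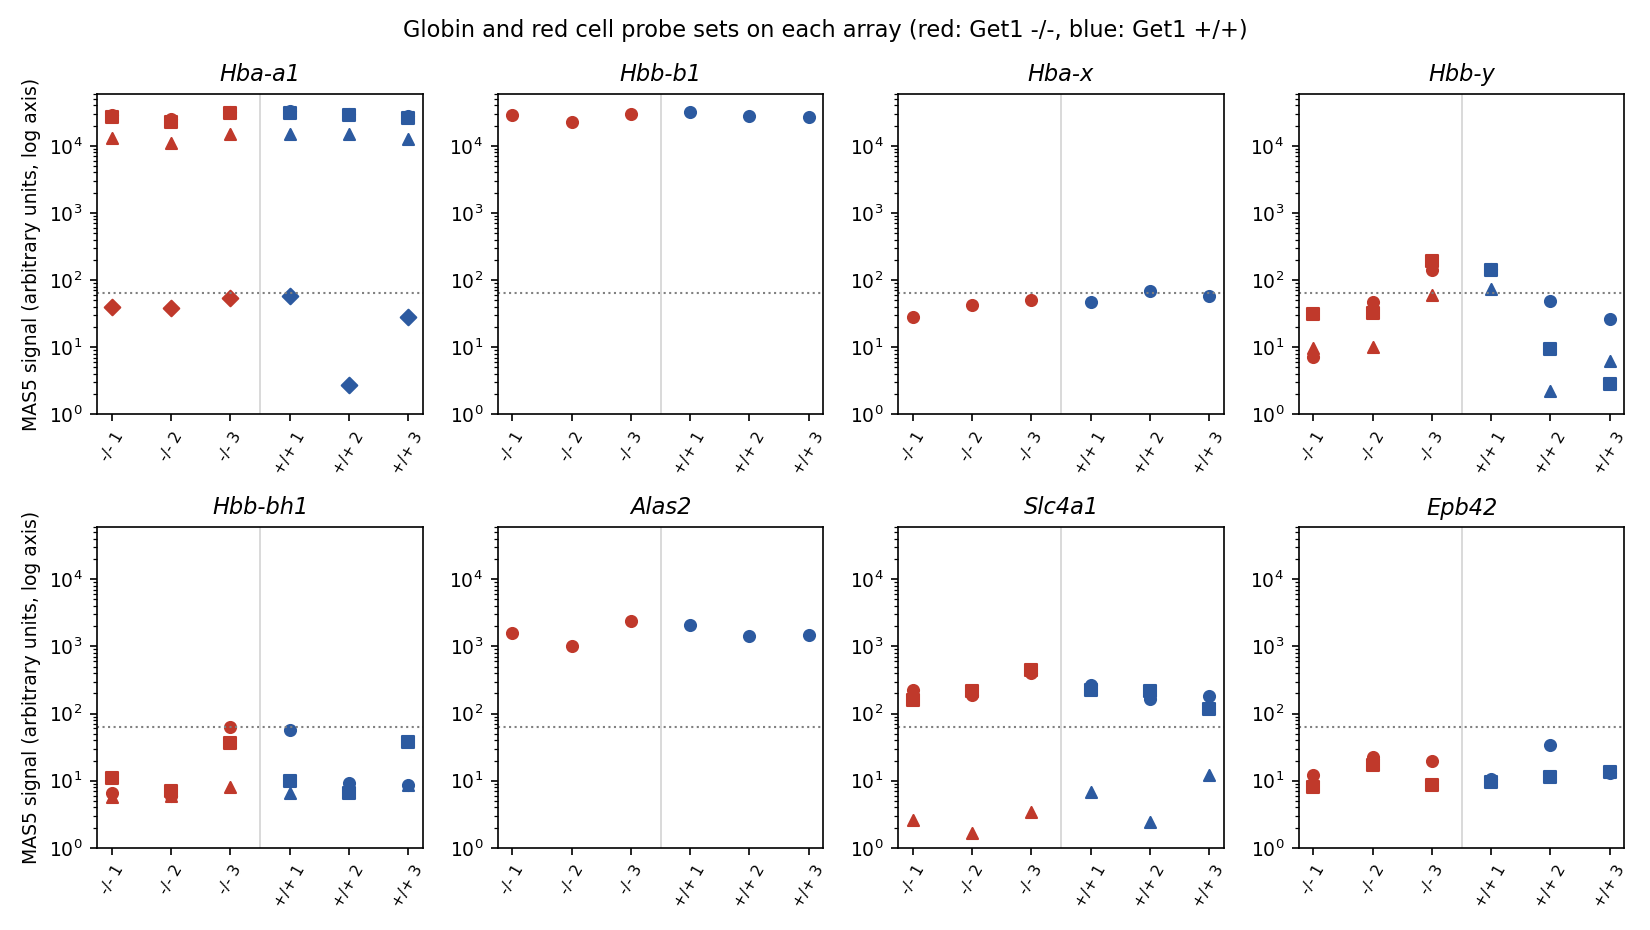
MAS5 signal in arbitrary units on a log axis for each array, with Get1 -/- arrays in red on the left of each panel and Get1 +/+ arrays in blue on the right; each marker shape is 1 probe set, and the dotted line is the highest value, 64.1, of the TrpnX control probe sets on any array. Adult alpha and beta globin lie far above the line on all arrays apart from the dim alpha probe set. Hba-x, Hbb-y, Hbb-bh1 and Epb42 lie near or below the line, except Hbb-y on Get1 -/- replicate 3 and Get1 +/+ replicate 1. The line comes from Get1 +/+ replicate 3, and the highest control reading of every other array is at most 38.0.

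The fourth Hba-a1 probe set did not follow the other 3. It is the only one annotated to Hba-a1 alone, and it read 39.8, 37.9 and 54.6 in Get1 -/- skin, against 58.8, 2.73 and 28.2 in Get1 +/+ skin. Its log2 change was 1.40 ± 1.03 (SE, limma with no filter, adjusted p = 0.880), with Get1 +/+ replicate 2 far below the other arrays. Those values lie under the highest reading, 64.1, of the 3 TrpnX control probe sets for a bacterial gene, which ran from 1.38 to 64.1 over the arrays. The readings of the 3 Get1 -/- arrays and of Get1 +/+ replicate 1 stood above the highest control readings of their own arrays, 32.7, 21.6, 38.0 and 23.6. This Hba-a1 probe set was among the 11 of 18 that did not pass the filter on dim signal. The filter asked for a mean log2 value at or above the median of all probe sets, which is a signal of 137. For those 11 the p-values come from the fit with no filter.

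Among the embryonic chains, the epsilon-y gene Hbb-y varied most between arrays. Its first probe set read 31.2, 31.9 and 192 in Get1 -/- skin, against 140, 9.49 and 2.84 in Get1 +/+ skin. The second probe set read 7.11, 47.4 and 143 in Get1 -/- skin, against 144, 49.4 and 26.1 in Get1 +/+ skin. The third probe set read 9.78, 9.95 and 60.7 in Get1 -/- skin, against 73.2, 2.25 and 6.14 in Get1 +/+ skin. All 3 were highest on the same 2 arrays, 1 of each genotype, and the other 4 arrays read at or below 49.4 in each.

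The Hbb-y changes between genotypes had no common sign. They were 1.89 ± 1.33, -0.65 ± 1.05 and 0.85 ± 1.30 on the log2 scale (SE, limma with no filter) for the 3 probe sets in that order, with adjusted p from 0.871 to 0.955. The sign of the second, which has the highest mean log2 signal, turned without Get1 -/- replicate 1, where it was 0.53, and without Get1 +/+ replicate 1, where it was 0.019. The first and second carry the array maker's suffix x, which marks probe sets with some probes that also match other transcripts. How much of the Hbb-y signal on those arrays came from the far brighter adult beta transcript was not tested.

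The beta-h1 gene Hbb-bh1 showed the same 2 arrays in 1 of its 3 probe sets. That probe set read 6.56, 5.88 and 62.8 in Get1 -/- skin, against 56.3, 9.12 and 8.72 in Get1 +/+ skin. The second read highest in replicate 3 of both genotypes, with 36.7 in Get1 -/- and 37.9 in Get1 +/+ skin. The third stayed between 5.75 and 8.56 on all arrays. None of these values exceeded 64.1. The 62.8 and 56.3 of the first probe set stood above the highest control readings of their own arrays, 38.0 and 23.6. The log2 changes were -0.30 ± 1.13, 0.07 ± 0.94 and -0.16 ± 0.75 (SE, limma with no filter). The first was 0.22 without Get1 -/- replicate 1, 0.30 without Get1 -/- replicate 2 and 0.59 without Get1 +/+ replicate 1.

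The zeta gene Hba-x, the embryonic alpha-like chain, was not highest on those 2 arrays. Its probe set read 27.8, 42.6 and 50.9 in Get1 -/- skin, against 47.9, 68.8 and 57.6 in Get1 +/+ skin. The genotypes overlapped, and only Get1 +/+ replicate 2 stood above 64.1. Get1 -/- replicates 2 and 3 and Get1 +/+ replicates 1 and 2 stood above the highest control reading of their own array. The means were 40.4 ± 11.7 in Get1 -/- and 58.1 ± 10.5 in Get1 +/+ skin, a log2 change of -0.55 ± 0.49 (SE, limma with no filter, adjusted p = 0.903). Without Get1 -/- replicate 1, the lowest array, the change was -0.30.

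**Figure D2:**
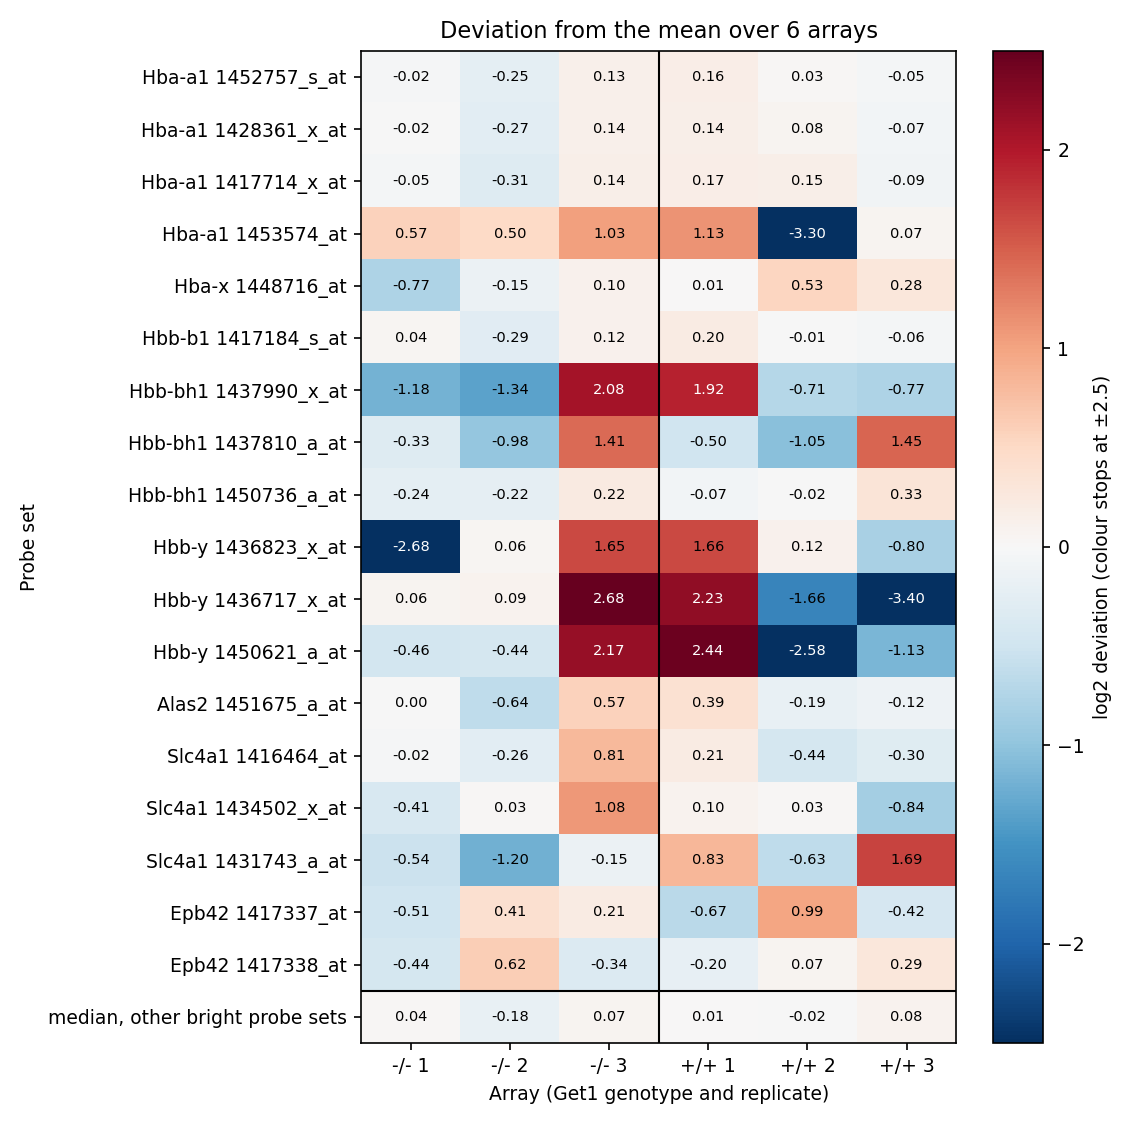
Deviation of each probe set from its own mean over the 6 arrays on the log2 scale, with Get1 -/- arrays on the left of the line and Get1 +/+ arrays on the right; the last row is the median deviation of 178 other probe sets with a mean signal of at least 20000. Get1 -/- replicate 3 and Get1 +/+ replicate 1 are high in the 3 Hbb-y rows, in 1 Hbb-bh1 row and in Alas2, and Get1 -/- replicate 2 is low in adult globins and Alas2.

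Alas2, the erythroid enzyme that starts heme synthesis, spread widely between mice, and its genotype means were close. Its probe set read 1610, 1031 and 2395 in Get1 -/- skin, against 2104, 1413 and 1477 in Get1 +/+ skin. Get1 -/- skin thus held both the lowest and the highest array, 2.32-fold apart. The means were 1679 ± 684 in Get1 -/- and 1665 ± 382 in Get1 +/+ skin, a log2 change of -0.05 ± 0.30 (SE, limma, adjusted p = 0.985). The interval, from -0.72 to 0.63, leaves room for a ratio between 0.606 and 1.55. Without Get1 -/- replicate 2 the change was 0.26, and without Get1 +/+ replicate 1 it was 0.13.

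Slc4a1 encodes band 3, the anion exchanger of the red cell membrane, and its 2 kept probe sets were highest in Get1 -/- replicate 3. The first read 223, 189 and 397 in Get1 -/- skin, against 262, 167 and 184 in Get1 +/+ skin. The second read 159, 216 and 446 in Get1 -/- skin, against 226, 216 and 118 in Get1 +/+ skin. Both had Get1 +/+ replicate 1 as the second highest array, and the genotypes overlapped in each. The log2 changes were 0.35 ± 0.33 (adjusted p = 0.850) and 0.47 ± 0.42 (adjusted p = 0.843, SE, limma). Without Get1 -/- replicate 3 the change of the first was 0.035. The third probe set read between 1.66 and 12.3 over all arrays, under the control probe sets' highest reading.

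Epb42, the protein 4.2 that ties band 3 to the membrane skeleton, read within the range of the control probe sets over all arrays. Its 2 probe sets read between 8.12 and 22.7 in Get1 -/- skin and between 9.56 and 34.0 in Get1 +/+ skin. The 22.7 and 34.0, both of the first probe set in replicate 2, stood above the highest control readings of their own arrays, 21.6 and 28.9. The first changed by 0.07 ± 0.73 and the second by -0.10 ± 0.72 on the log2 scale (SE, limma with no filter). The highest array was Get1 +/+ replicate 2 for the first and Get1 -/- replicate 2 for the second, unlike for Alas2 and Slc4a1.

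Over all 22519 kept probe sets, 0.0266% passed an adjusted p under 0.05 in limma, 6 in number (0.0178% higher and 0.00888% lower in Get1 -/- skin), and 0 of the 7 kept globin and red cell probe sets did. None of the 7 had an unadjusted p under 0.05, where 6.72% of all kept probe sets did, and their adjusted p ran from 0.843 to 0.985. The 11 dim probe sets likewise had 0 at an unadjusted p under 0.05 in the fit with no filter, with adjusted p from 0.871 to 0.996. With the replicate number as a block 0.155% of the kept probe sets passed, and again 0 of the 7, with 0.745 as the smallest adjusted p. Genotypes did not overlap in 11.1% of kept probe sets (4.63% higher and 6.51% lower in Get1 -/- skin) and in 0 of the 18 of these genes. Of the 7 kept ones, 2 were higher and 5 lower in Get1 -/- skin, where 50.2% of all kept probe sets were higher. Their median log2 change was -0.09, beside 0.0015 over all kept probe sets. A p above the threshold does not show that the genotypes were equal. The SE ran from 0.117 to 0.140 for the 4 bright globin probe sets, as measured on this scanner range, and from 0.489 to 1.33 for the dim ones.

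**Figure D3:**
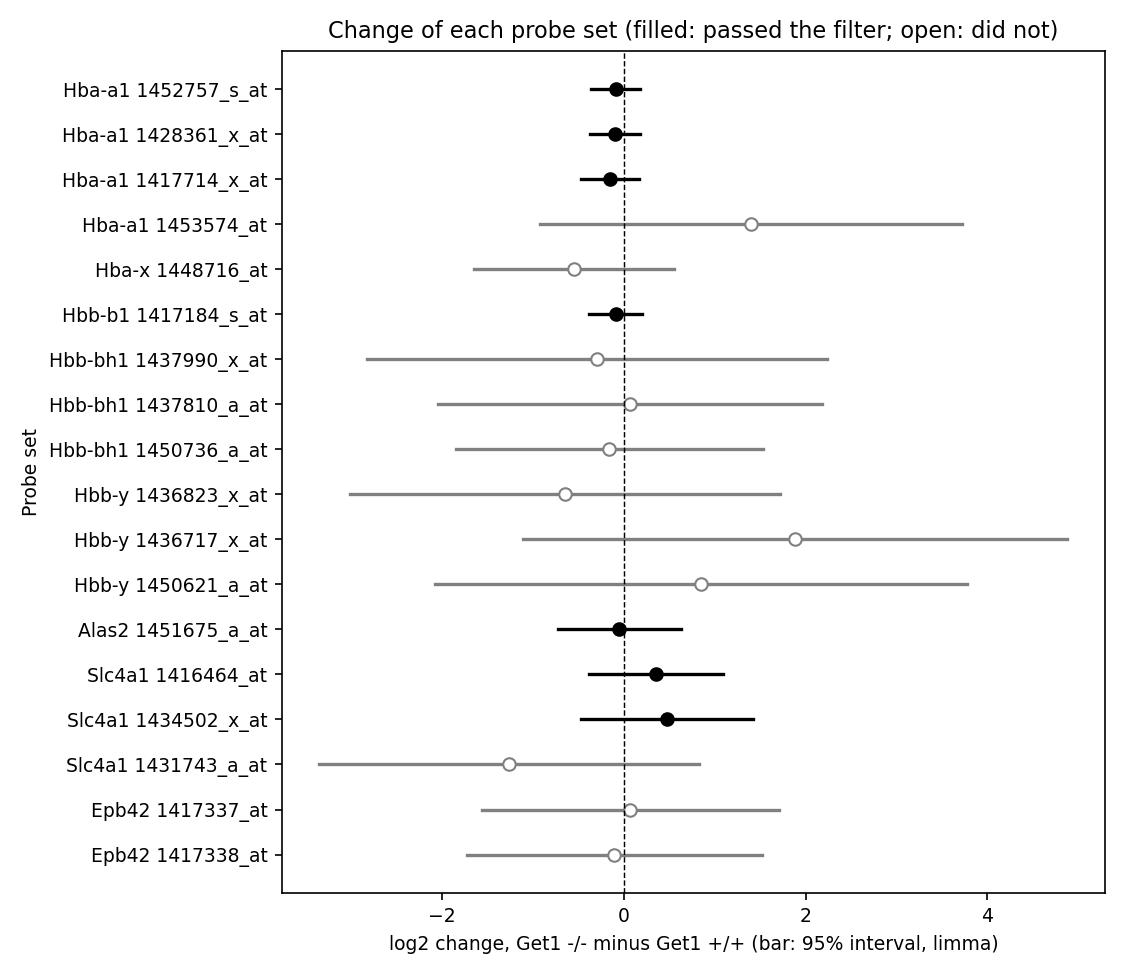
Log2 change, Get1 -/- minus Get1 +/+, of each of the 18 probe sets with its 95% interval from limma; filled points passed the filter on dim signal and open points did not and come from the fit with no filter. All intervals cover 0; those of the 4 bright globin probe sets stay between -0.47 and 0.20, and those of the dim probe sets reach from -3.35 to 4.88.

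In 15 of the 18 probe sets, and in all 7 kept ones, the difference between the genotype means on the log2 scale was smaller than the range within each genotype, as it was in 72.3% of the other kept probe sets and in 71.8% of the other dim ones. Get1 -/- replicate 3 and Get1 +/+ replicate 1 were the 2 highest arrays in 11 of the 18 probe sets, 6 of them kept. The same 2 arrays were highest in 7.18% of the other kept probe sets, in 6.59% of those that did not pass the filter, and in 20.8% of the 178 other bright ones. This pair was noticed in the data and was not fixed beforehand, and of the 18 probe sets 3 measure the same adult alpha transcripts. With both arrays left out, 0 of the 7 kept probe sets passed, with 0.772 as the smallest adjusted p.

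Genes of the same pathway, listed by their role in the red cell, gave no call either. Of 60 genes in 5 lists, 54 had a probe set and 37 a kept one, of which 0 passed in either direction (limma, 0 at an unadjusted p under 0.05). Of the 37, 23 were higher and 14 lower in Get1 -/- skin, with a median log2 change of 0.05. Genotypes did not overlap in 2 of the 37, beside 11.1% of all kept probe sets, so the count does not set these genes apart. The transferrin receptor Tfrc, which brings iron into erythroblasts and other dividing cells, read 1645, 1748 and 1740 in Get1 -/- skin, against 1636, 865 and 1423 in Get1 +/+ skin. Bcl11a, known as a repressor of embryonic globin genes in red cells and also made in other tissues, read 1085, 1071 and 1079 in Get1 -/- skin, against 1167, 1304 and 1334 in Get1 +/+ skin.

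Heme synthesis genes downstream of Alas2 had 6 kept members, 3 higher and 3 lower, with a median log2 change of 0.0045. Their smallest p belonged to Cpox (0.25 ± 0.28), Uros (-0.14 ± 0.21) and Alad (0.14 ± 0.26). These enzymes also serve heme synthesis in cells other than erythroblasts. Iron supply and heme transport genes had 9 kept members, 7 higher and 2 lower, with a median of 0.18. There Tfrc (0.44 ± 0.23), the iron regulatory protein Ireb2 (0.49 ± 0.27) and the iron importer Slc11a2 (-0.41 ± 0.24) had the smallest p, and their adjusted p ran from 0.744 to 0.759 (limma).

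Red cell membrane genes were for the most part dim. Of 17 listed, 14 had a probe set and 6 a kept one, 5 higher and 1 lower, with a median log2 change of 0.13. The tropomodulin Tmod1, which caps actin filaments in the membrane skeleton and is also made in muscle, had the smallest p among them. It read 959, 644 and 1265 in Get1 -/- skin, against 959, 612 and 655 in Get1 +/+ skin. The adducin Add2 (1.09 ± 0.53) and the Rh antigen gene Rhd (-0.73 ± 0.52) had smaller p but did not pass the filter. Rhag, the partner of Rhd in the membrane, read between 9.25 and 47.9 on all arrays.

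Transcription factors of the erythroid lineage had 7 kept members among 12, 4 higher and 3 lower, with a median log2 change of 0.05. Gata1, Klf1, Gfi1b and Nfe2, which define the lineage, did not pass the filter. Nfe2, a partner in the activation of globin genes, read 65.1, 15.7 and 76.6 in Get1 -/- skin, against 120, 105 and 122 in Get1 +/+ skin. The genotypes did not overlap there, and the log2 change of -1.43 ± 0.61 (SE, limma with no filter) had an adjusted p of 0.837 and an unadjusted p of 0.0422. Tal1, shared by blood and vessel cells, changed by 0.44 ± 0.33, and Bcl11a by -0.23 ± 0.14. Late red cell enzymes and maturation genes had 9 kept members, 4 higher and 5 lower, with a median of -0.04. The peroxiredoxin Prdx2 (-0.28 ± 0.13), Tent5c (0.48 ± 0.24) and the 2,3-bisphosphoglycerate enzyme Bpgm (-0.31 ± 0.18) had the smallest p, and the carbonic anhydrase Car1 did not pass the filter.

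**Figure D4:**
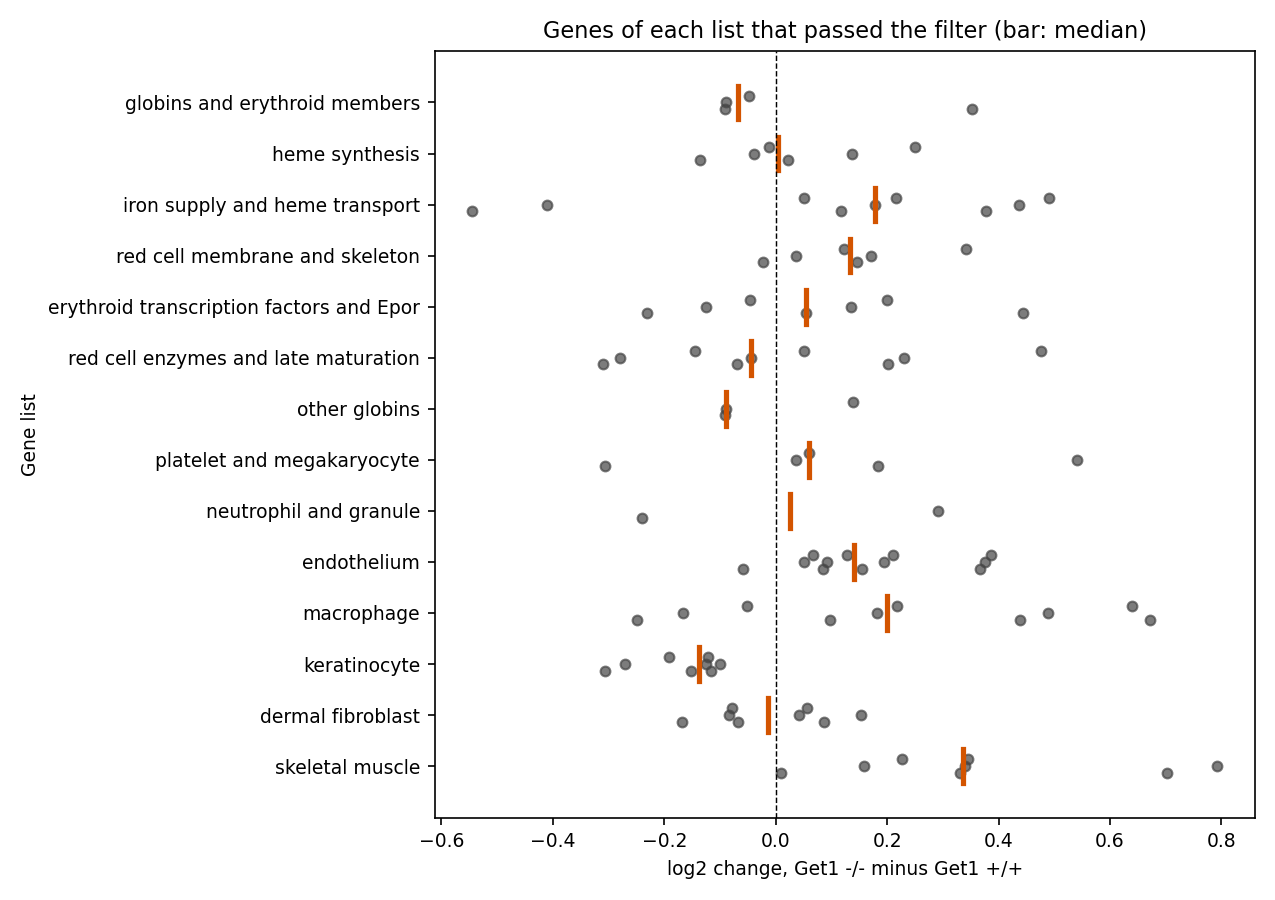
Log2 change, Get1 -/- minus Get1 +/+, of each gene that passed the filter on dim signal, by list; each point is a gene's brightest kept probe set and each bar a list's median. The medians of the 5 red cell lists lie between -0.04 and 0.18, and that of skeletal muscle is 0.34.

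Markers of other blood cells and of vessels were read beside the globins, since the red cells of skin arrive with them. Platelet and megakaryocyte genes had 5 kept members of 12 and a median log2 change of 0.06, and 0 passed. The platelet chemokine Pf4, which some macrophages also make, read 4867, 3959 and 4370 in Get1 -/- skin, against 4142, 3487 and 5141 in Get1 +/+ skin. Endothelial genes had 12 kept members of 12, 11 of them higher, beside 50.2% of all kept probe sets, with a median of 0.14, and 0 passed. These genes share the same arrays, and the direction of the list was not tested. Neutrophil granule genes had 2 kept members of 12, and the defining genes Elane, Mpo, Prtn3 and Ctsg did not pass the filter. Macrophage genes had 10 kept members of 10 and a median of 0.20, with 4 at an unadjusted p under 0.05, where 6.72% of all kept probe sets had one, and 0 past the threshold.

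Array by array, the lists differed in whether both arrays with high Hbb-y stood above the other 4. Dermal fibroblast genes averaged 0.08 in Get1 -/- replicate 3 and 0.18 in Get1 +/+ replicate 1. They stood at -0.06 and -0.04 in the other Get1 -/- arrays and at -0.0008 and -0.16 in the other Get1 +/+ arrays. Erythroid transcription factors averaged 0.24 in Get1 -/- replicate 3, 0.11 in Get1 +/+ replicate 1 and at most 0.02 elsewhere. The other red cell lists did not share this pattern. In Get1 +/+ replicate 1, heme synthesis genes averaged -0.04, iron supply and heme transport genes -0.07, and late red cell enzymes and maturation genes -0.04. Red cell membrane genes averaged 0.06 there, below 0.13 in Get1 -/- replicate 1. Platelet and macrophage genes averaged -0.03 and -0.19 in Get1 +/+ replicate 1. Averaged over members, skeletal muscle genes stood at 0.44 in Get1 -/- replicate 3 and 0.18 in Get1 +/+ replicate 1, against 0.34 and -0.23 in the other Get1 -/- arrays and -0.63 and -0.10 in the other Get1 +/+ arrays. Endothelial genes stood at 0.27 in Get1 -/- replicate 3, the highest array, at 0.03 in Get1 +/+ replicate 1, close to 0.02 in Get1 -/- replicate 1, and between -0.16 and -0.03 in the other 3. Summed over the 12 genes, endothelial signal ran from 9501 to 11837 in Get1 -/- and from 8933 to 9842 in Get1 +/+ skin. The 3′ over 5′ ratio of the beta-actin control, a sign of RNA integrity, ran from 1.36 to 1.49 in Get1 -/- and from 1.35 to 1.37 in Get1 +/+ skin. Get1 -/- replicate 2, the array with the lowest adult globins, had the highest actin ratio, 1.49, but the second lowest Gapdh ratio, 0.732, where Gapdh ran from 0.732 to 0.844 in Get1 -/- and from 0.692 to 0.810 in Get1 +/+ skin. The part of these values in the globin differences was not tested.

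Other globins were measured as well. Cytoglobin (Cygb), a globin of fibroblasts and not of red cells, read between 397 and 440 in Get1 -/- and between 355 and 406 in Get1 +/+ skin, a log2 change of 0.14 ± 0.17 (SE, limma, adjusted p = 0.896). Myoglobin (Mb), the oxygen store of muscle, did not pass the filter and read 38.9, 6.59 and 102 in Get1 -/- skin, against 88.9, 44.8 and 28.6 in Get1 +/+ skin. Its 2 highest arrays were again Get1 -/- replicate 3 and Get1 +/+ replicate 1.

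The genes whose pattern over the 6 arrays was most like that of adult alpha globin are given here without the globin and red cell genes themselves, which were left out of the choice. By Pearson correlation of log2 values with its brightest probe set, given as a measure of likeness and picked as the 8 highest among kept probe sets with 1 symbol, they were Eno2, Col1a2, Nnat, Mier2, Tpbg, Atp1b2, Col6a2 and Krt1, from 0.994 down to 0.974. Col1a2, Col6a2 and Krt1, which encode collagen chains and a suprabasal keratin, are themselves bright, with mean signals of 32491, 16677 and 27913. Of the probe sets left out, another shared alpha probe set correlated at 0.987 and the adult beta probe set at 0.973. For Alas2 the 8 were Kcnab2, Cnnm1, Kansl1, Glg1, Rusc1, Pyurf, Slc25a12 and Tnxb, from 0.998 to 0.979. These values are the highest picked from many probe sets over only 6 arrays, and all points share the arrays and their scaling. How many genes reach such values was not counted.

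The remaining checks concern the arrays as a whole. Grhl3 itself had 1 probe set, which read 346 ± 88.5 in Get1 -/- and 694 ± 229 in Get1 +/+ skin (log2 change -0.98 ± 0.29, limma, adjusted p = 0.737), with no overlap. It checks the genotype only if it lies in the deleted part. Keratinocyte markers, 8 of 8 kept, were bright on all arrays, as the label back skin implies, and had log2 changes from -0.31 to -0.10 with 0 past the threshold. Pairs of arrays correlated at 0.916 to 0.971 on the log2 scale over all kept probe sets. The highest value, 0.971, was that of Get1 -/- replicate 3 with Get1 +/+ replicate 1, the arrays with high Hbb-y. Within a genotype the highest was 0.962, between Get1 -/- replicates 2 and 3. The likeness of those arrays is thus not particular to the globin and red cell genes, and its cause was not tested.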

How the data were processed

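The deposited table holds intensity values, a linear signal per probe set, which the authors made with MAS5, per the submitters' processing notes (version not given); array scanning, build and detection calls are not given in the sources used here. The 2% trimmed mean was 500.0 on all 6 arrays, so no further scaling was applied. The 64 control probe sets were left out, values were turned into log2, and probe sets with a mean log2 value at or above the median were kept (22519 of 45037). Symbols came from the platform annotation: 34945 probe sets had 1 symbol, 932 several and 9160 none. Shared probe sets were kept and named as shared; a listed gene was read from its brightest kept probe set.

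The comparison of the genotypes used limma 3.58.1 under R 4.3.3, with a linear model of 2 group means, moderated variances with an intensity trend, two-sided p-values and Benjamini-Hochberg adjustment over all kept probe sets; it was tested on simulated data. Sample titles carry numbers 1 to 3 in both genotypes but no litter or batch, and p-values measure only the spread between these samples. As a check of pairing, each array's deviation from its group mean was correlated with that of the like-numbered array of the other genotype, giving 0.133, 0.260 and 0.140. All exceed the limit of 0.1, so a fit with the replicate block is given too. The genes named were all members, the 3 with the smallest p in each pathway list, and the nearest in pattern to Hba-a1 and Alas2. Bcl11a and Tfrc as genes without overlap, and Rhag, Pf4, Car1, Mb, Cygb and the dim lineage factors, were singled out after their values were seen. Members and lists were chosen with earlier results of these data known. Alternatives changed the normalization, filter, offset, trend, weights, block, probe set per gene and arrays.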

Additional observations from a re-analysis of the deposited data

How the results depend on the processing

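Across 17 alternatives the number of kept globin and red cell probe sets past the threshold stayed at 0 (smallest adjusted p 0.534, limma with array weights), and across 16 the number of erythroid pathway genes stayed at 0 (smallest 0.158, without Get1 +/+ replicate 1). The count over all probe sets was 6, against 13 with median centring and 35 with the replicate block (12 higher, 23 lower), 4 to 25 when 1 array was left out (25 without Get1 +/+ replicate 1), and 1 without Get1 -/- replicate 3 and Get1 +/+ replicate 1, an alternative added after the data were seen. The replicate block changed no call among the globin and red cell genes or the 5 erythroid lists, and was not run for the lists of other cell types. The Hba-x change of -0.55 kept its sign throughout but was -0.30 with an offset before log2, and ran from -0.74 to -0.30 when 1 array was left out. For the brightest probe set of the 8 genes, 106 of 123 alternative values kept their sign and 17 turned it, with 0 past the threshold. Alas2 turned to 0.22 with array weights, and when 1 array was left out it ran from -0.35 to 0.26. Epb42 turned to -0.0071 with an offset before log2 and to -0.33 without Get1 -/- replicate 3 and Get1 +/+ replicate 1. Hbb-bh1 turned to 0.15 with array weights. When 1 array was left out, Epb42 ran from -0.25 to 0.58, the brightest Hba-a1 probe set from -0.18 to 0.0096, Hbb-b1 from -0.17 to 0.034, Hbb-bh1 from -1.41 to 0.59 and Hbb-y from -1.64 to 0.53. The cause was not tested for any of these turns. The number of arrays and, for embryonic globins and Epb42, signal in or near the control probe sets' range limit what could be detected.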
